A study of Mus musculus with 6 samples.

Results

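The 7 genes described here, Dusp1, Dusp2, Dusp4, Dusp5, Dusp6, Dusp10 and Dusp16, encode dual-specificity phosphatases that switch off MAP kinases. They were found by symbol among the 24091 genes of a read count table of liver group 1 innate lymphoid cells (ILC1), and all 7 also passed the filter on low counts, which kept 12469 genes. The AML group was 3 libraries of ILC1 from the livers of C57BL/6 mice that had received C1498 cells, a transplantable acute myeloid leukaemia line of that strain, into a vein. The healthy group was 3 libraries of liver ILC1 from C57BL/6 mice given no such cells, and day 14 was the time of isolation in both groups. Neither the labels nor the files give the sort or gate, the sex or age in weeks of the animals, or whether a library came from 1 animal or a pool, so the spread between libraries may be technical in part. The members were chosen by family and by their CPM in the AML and healthy libraries, so their values in that contrast are given as a description.

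A MAP kinase is active while a threonine and a tyrosine in its activation loop both carry phosphate, and a dual-specificity phosphatase removes both. The family is sorted by where its members work and which kinase they act on. Dusp1, Dusp2, Dusp4 and Dusp5 encode nuclear enzymes, Dusp6 a cytoplasmic enzyme that acts on ERK, and Dusp10 and Dusp16 enzymes that act on JNK and p38. In lymphocytes several of these genes are themselves switched on by MAP kinase signalling soon after a stimulus, so that the phosphatases form a negative feedback.

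RefSeq promoter sequences of GRCm38.p6 were at hand for 6 of the 7 genes, the exception being Dusp4. Those of the 4 most abundant members are shown because motifs known from immediate early genes are found in some and not in others. Each runs from 250 bases before the transcription start to the base before it, 5′ to 3′ on the strand of the gene. Capitals mark a cyclic AMP response element (CRE, TGACGTCA) in Dusp1 and a CArG box, the binding motif of serum response factor, in Dusp5, where a pair of them lie side by side. The windows are chr17:26508473-26508722, minus strand, for Dusp1, chr2:127335909-127336158, plus strand, for Dusp2, chr19:53528895-53529144, plus strand, for Dusp5, and chr10:99262981-99263230, plus strand, for Dusp6.
Dusp1: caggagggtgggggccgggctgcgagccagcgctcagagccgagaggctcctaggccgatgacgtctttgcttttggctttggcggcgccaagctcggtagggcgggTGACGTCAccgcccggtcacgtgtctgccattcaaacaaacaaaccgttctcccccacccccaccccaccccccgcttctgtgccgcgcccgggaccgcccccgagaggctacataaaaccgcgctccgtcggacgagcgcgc
Dusp2: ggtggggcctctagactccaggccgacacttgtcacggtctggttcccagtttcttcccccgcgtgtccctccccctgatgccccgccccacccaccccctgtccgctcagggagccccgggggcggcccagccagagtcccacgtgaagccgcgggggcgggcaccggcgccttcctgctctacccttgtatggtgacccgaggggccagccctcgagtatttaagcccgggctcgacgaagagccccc
Dusp5: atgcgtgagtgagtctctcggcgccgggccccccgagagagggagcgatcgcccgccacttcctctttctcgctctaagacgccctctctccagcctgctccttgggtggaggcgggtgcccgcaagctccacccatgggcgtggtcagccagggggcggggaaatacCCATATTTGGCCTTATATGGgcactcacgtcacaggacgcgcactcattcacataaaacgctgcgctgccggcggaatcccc
Dusp6: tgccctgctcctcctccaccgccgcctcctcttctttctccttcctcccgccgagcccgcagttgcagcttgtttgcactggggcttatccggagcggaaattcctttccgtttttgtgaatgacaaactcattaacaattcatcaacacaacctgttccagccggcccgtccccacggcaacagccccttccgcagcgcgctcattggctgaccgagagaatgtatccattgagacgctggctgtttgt

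Motifs were searched on both strands of the 300-base RefSeq windows, which add 50 bases after the start, and the TATA box (TATAAA) on the gene's strand only. The CRE was found in 1 of the 6 members, Dusp1, at position -143 from the start, and in 1.79% of 32851 promoters of that length. A CArG box was found in 1 of the 6, Dusp5, at positions -82 and -72, and in 1.63% of all promoters. The GC box (GGGCGG) was found in 5 of the 6, all but Dusp6, and in 35.7% of all promoters. An E-box (CACGTG) was found in Dusp1 and Dusp2 and in 7.15% of all promoters, and in Dusp1 it lies a few bases after the CRE without overlapping it. An AP-1 site (TGANTCA) or a TATA box was found in 0 of the 6 windows, against 7.81% and 8.32% of all promoters.

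The 3′ untranslated regions also differed. AU-rich elements there are known to shorten the life of mRNA, and ATTTA is their core. By the GENCODE transcripts the core occurred 5.80 times per kilobase in Dusp1 and 6.88 times in Dusp2, against 0.902 in Dusp5, 0.840 in Dusp6, 1.80 in Dusp4, 2.70 in Dusp10, 1.24 in Dusp16 and a median of 1.28 over 20605 genes. The longer element TTATTTATT was found in Dusp1 and in 7.73% of those genes, and in none of the other 6 members. The first Dusp1 copy, in capitals with its flanks, lies in the 3′ untranslated region at chr17:26506159-26506187, minus strand, GRCm38, and is shown since Dusp1, with 2 copies, is the only member that holds this element.
Dusp1: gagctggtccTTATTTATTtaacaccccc

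Total counts were 45135093 to 51284691 in AML libraries and 48999439 to 51114701 in healthy libraries, so a floor of 3 counts stood at 0.0574 to 0.0641 CPM. A pair of libraries stood apart. By the chi-square per gene of their counts, the library labelled AML 1 differed less from the 3 healthy libraries, at 59.3 to 72.1, than from the other AML libraries, at 86.7 and 103. Its label could not be checked independently, and a wrong label or a smaller leukaemia in the source of that library was not tested. The AML means and fold changes below include it and depend on that label. In the dendritic cell markers other than Itgax it stood with the AML libraries, at 569 CPM, above every healthy library. Healthy 1 resembled the AML libraries in the myeloid lysozyme gene Lyz2, which ran from 434 to 566 CPM in AML libraries, stood at 459 CPM in healthy 1 and was 35.0 CPM in healthy 2 and 33.1 CPM in healthy 3. The ILC1 label was matched by its markers, whose 10 genes summed to 11456 to 12331 CPM in AML libraries and 12123 to 12445 CPM in healthy libraries. Summed macrophage markers, 12 genes, were 141 to 218 CPM in AML libraries and 31.9 to 109.9 CPM in healthy libraries. Summed heat shock genes, 12 genes that respond to handling stress, were 3088 to 4167 CPM in AML libraries and 3530 to 10278 CPM in healthy libraries, highest in healthy 1. Summed monocyte and neutrophil markers, 8 genes, were 449 to 594 CPM in AML libraries and 35.6 to 472 CPM in healthy libraries, with Ly6g at 0 throughout, and the 12 dendritic cell markers 1136 to 1332 CPM in AML and 869 to 906 CPM in healthy libraries. Itgax made up most of that sum, at 672 to 765 CPM in AML and 693 to 769 CPM in healthy libraries. The other 11 genes summed to 371 to 661 CPM in AML and 106 to 204 CPM in healthy libraries. Of the 12 genes 6 were higher in all AML libraries than in any healthy one, as were 8.20% of all genes tested. The 7 conventional NK cell markers summed to 149 to 210 CPM in AML libraries and 154 to 181 CPM in healthy libraries. The 8 hepatocyte markers, mostly Trf, summed to 186 to 206 CPM in AML and 230 to 276 CPM in healthy libraries. The 9 endothelial and stellate markers, mostly Pecam1, summed to 96.4 to 117 CPM in AML and 91.3 to 127 CPM in healthy libraries, with Lyve1 and Col3a1 at 0. Summed T cell markers, over the 6 of 9 listed genes found in the count table, were 28.8 to 86.1 CPM in AML libraries and 46.3 to 59.0 CPM in healthy libraries, and the 6 B cell markers 5.49 to 6.45 CPM in AML and 5.61 to 7.54 CPM in healthy libraries, with Pax5 at 0 in every library. The part of these other RNAs in the values below was not tested.

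The liver ILC1 libraries held Dusp1 and Dusp2 among their most abundant mRNAs, and Dusp5 as well with the gene lengths of the count table. The part of handling stress in these levels was not tested. Levels of different genes were compared per kilobase, as RPKM on TMM-scaled library sizes, with the gene lengths of the count table. By mean RPKM over AML libraries, Dusp1 stood in rank 33, Dusp2 in rank 77 and Dusp5 in rank 95 of 12469 genes. In healthy libraries they stood in ranks 21, 43 and 48. Dusp6 stood in rank 570 in AML and 362 in healthy libraries, and Dusp10 in rank 2634 in AML and 2150 in healthy libraries. Dusp4 and Dusp16 were far lower, in ranks 10456 and 10371 in AML and 8525 and 10184 in healthy libraries.

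Dusp1 measured 1107 ± 159 RPKM in AML and 1887 ± 456 RPKM in healthy libraries (SD, n = 3 each), above Dusp2 in every library of both groups. Dusp2 measured 531 ± 37.6 RPKM in AML and 929 ± 150 RPKM in healthy libraries. Dusp5, at 469 ± 369 RPKM in AML and 807 ± 170 RPKM in healthy libraries, could not be ordered against Dusp2 with these lengths, since their libraries overlapped in both groups. Dusp6 followed at 111 ± 8.28 RPKM in AML and 173 ± 30.5 RPKM in healthy libraries, and Dusp10 at 30.0 ± 14.5 RPKM in AML and 38.6 ± 3.65 RPKM in healthy libraries, each apart from its neighbours in every library. Dusp4 measured 0.713 ± 0.850 RPKM in AML and 2.70 ± 0.366 RPKM in healthy libraries, and Dusp16 0.772 ± 0.212 RPKM in AML and 0.753 ± 0.131 RPKM in healthy libraries. These lowest members overlapped in AML libraries, while in healthy libraries every value of Dusp4 lay above every value of Dusp16. The length given for Dusp5, 1151 bases, is shorter than its 2473-base GENCODE transcript, and that for Dusp16, 7536 bases, is longer than its 5104-base longest coding transcript. The order of Dusp5 rests on that length. With the GENCODE lengths, chosen after the data were seen, Dusp5 measured 413, 152 and 89.0 RPKM in AML 1 to 3 and 428, 414 and 285 RPKM in healthy 1 to 3, below Dusp2 in every library, and in AML 3 also below Dusp6, at 118 RPKM. Its rank was then 233 in AML and 138 in healthy libraries, with all other genes kept at the lengths of the count table. Dusp16 then measured 1.14 ± 0.313 RPKM in AML and 1.11 ± 0.193 RPKM in healthy libraries, still overlapping with Dusp4 in AML and below it in healthy libraries. Reads carry no strand information, and a gene on the opposite strand overlaps Dusp5 and another Dusp16.

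**Figure D1:**
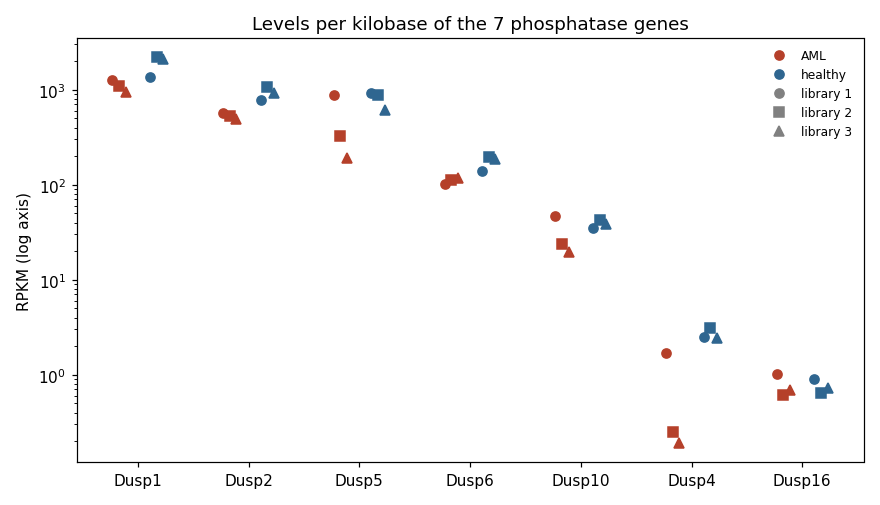
RPKM on a log axis for each phosphatase gene in each library, AML left of healthy, with the symbol giving the library number. With the lengths of the count table Dusp1, Dusp2 and Dusp5 lie highest in both groups and Dusp4 and Dusp16 lowest. For every member but Dusp6 the AML 1 point lies above AML 2 and AML 3, by the widest spans for Dusp4, Dusp5 and Dusp10.

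The members summed to 3257 to 4826 CPM in AML libraries and 5452 to 7704 CPM in healthy libraries, or 0.343% to 0.480% of all reads in AML and 0.534% to 0.750% in healthy libraries. In bulk RNA a lower level can come from fewer cells of a type or from less RNA per cell, which cannot be told apart here. Of the 7 members 6 had a negative log2 fold change, AML minus healthy, with a median of -0.77 over the 7, against a median of 0.01 over all 12469 genes. The 12 heat shock genes had fold changes of like direction and size, with a median of -0.78, 11 negative fold changes and 0 called. Of them 7 were lower in AML at an unadjusted p below 0.05 in the edgeR test, against 3.75% of all genes. For 2 of the 12, Hspa8 and Hsp90aa1, every AML library lay below every healthy one, against 7.34% of all genes tested. Within the healthy group the sums ran in opposite order. The heat shock sum was 10278, 3530 and 6626 CPM in healthy 1 to 3, and the members' sum 5452, 7704 and 6904 CPM. The part of the heat shock genes in the members' values was not tested. For 4 members, Dusp1, Dusp2, Dusp4 and Dusp6, the AML libraries all lay below the lowest healthy one, a pattern found for 7.34% of all genes tested. In the quasi-likelihood test of edgeR 0 of the 7 passed an adjusted p of 0.05 over all genes, where 0% of genes passed. At an unadjusted p below 0.05 there were 4 members lower in AML, the same 4, against 3.75% of all genes. Because the contrast helped to choose the members, these counts only describe them.

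**Figure D2:**
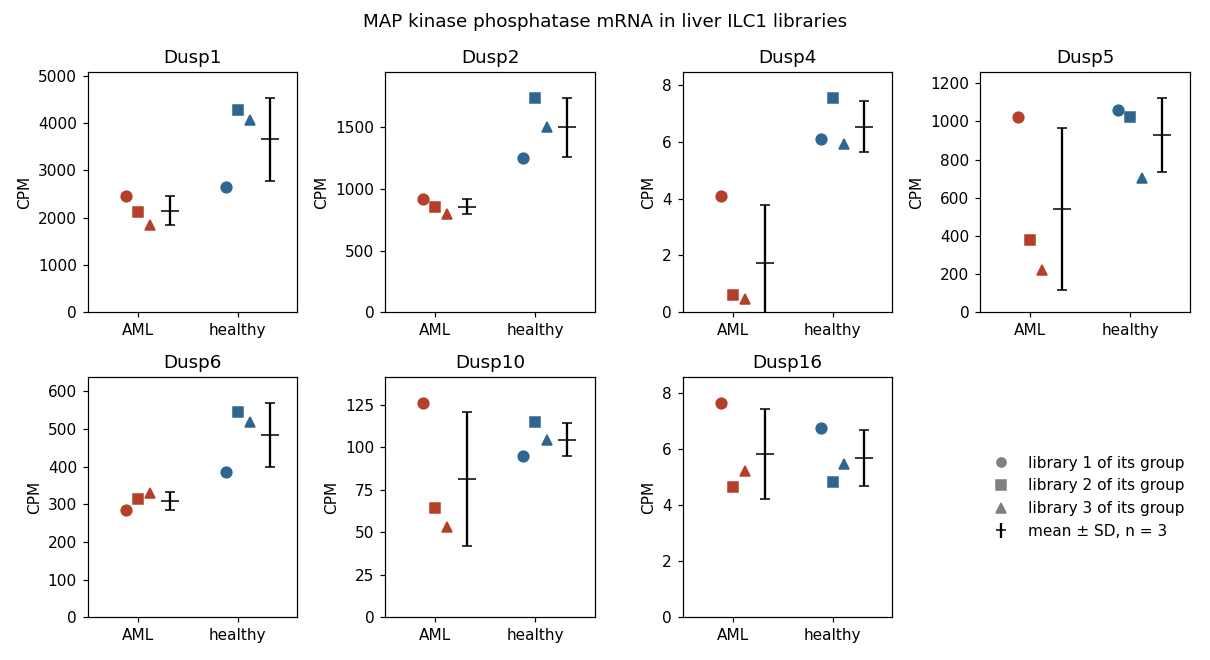
CPM of each member in every library, AML left of healthy, with the mean and SD of 3 libraries beside the points (the SD bar of Dusp4 in AML is cut at 0). The AML and healthy points do not overlap for Dusp1, Dusp2, Dusp4 and Dusp6, and AML 1 lies near or above the healthy points for Dusp5, Dusp10 and Dusp16.

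Among the nuclear phosphatases, Dusp1 (chromosome 17, 26505591 to 26508472, minus strand, mm10), which acts on p38 and JNK, and also on ERK, was the most abundant. It measured 2466, 2120.3 and 1853 CPM in AML 1 to 3, against 2645, 4269 and 4059.6 CPM in healthy 1 to 3. The highest AML library and the lowest healthy library, both numbered 1, lay close together and did not overlap. Its log2 fold change of -0.77 ± 0.18 (SE) equals 0.587 times the healthy level. It was -0.29 when Lyz2 entered as a covariate and -1.07 without AML 1 and healthy 1. Lyz2 was high in all AML libraries and, of the healthy ones, in healthy 1 alone. The covariate therefore sets the AML libraries mostly against healthy 1, and cannot separate myeloid RNA from the group.

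Dusp2 (chromosome 2, 127336159 to 127338377, plus strand), also called PAC-1 and known from activated lymphocytes, was the steadiest in AML. It measured 918, 854 and 797 CPM in AML 1 to 3, against 1253, 1738 and 1505 CPM in healthy 1 to 3. The AML libraries lay within 1.15-fold of each other and all below the healthy ones, which spanned 1.39-fold. This gave a log2 fold change of -0.81 ± 0.12 (SE), or 0.571 times the healthy level. The ratio of Dusp1 to Dusp2 in CPM was 2.33 to 2.69 in AML libraries and 2.11 to 2.70 in healthy libraries, so this ratio overlapped between the groups. Both genes ordered the 6 libraries alike, with healthy 2 highest, then healthy 3, healthy 1, AML 1, AML 2 and AML 3.

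Dusp4 (chromosome 8, 34807610 to 34819894, plus strand), which acts on ERK and JNK, was scarce and had the most negative fold change of the 7. Its counts were 192, 32 and 22 reads in AML 1 to 3, against 302, 376 and 286 reads in healthy 1 to 3. This corresponded to 4.10, 0.612 and 0.463 CPM in AML and 6.12, 7.56 and 5.94 CPM in healthy libraries. The groups did not overlap, but AML 1 was 8.87-fold above AML 3. Its log2 fold change of -1.92 ± 0.77 (SE) was -3.60 without AML 1 and -1.47 without AML 3.

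Dusp5 (chromosome 19, 53529318 to 53541322, plus strand), a nuclear phosphatase specific for ERK, split the AML group. It measured 1021, 377 and 220.0 CPM in AML 1 to 3, against 1059.6, 1023 and 705 CPM in healthy 1 to 3. AML 1 lay among the healthy libraries, while AML 2 and AML 3 lay below all of them. The log2 fold change was -0.78 ± 0.50 (SE) with all libraries, -1.64 without AML 1 and -0.41 without AML 3. AML libraries spanned 4.64-fold, and of the 8345 genes with a mean of at least 10 CPM 0.216% spanned more, whereas the median gene spanned 1.19-fold.

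Dusp6 (chromosome 10, 99263231 to 99267489, plus strand), the cytoplasmic ERK phosphatase, differed from the others in the place of AML 1 within its group. It measured 284, 314 and 329 CPM in AML 1 to 3, against 387, 546 and 519 CPM in healthy 1 to 3. All AML libraries lay below all healthy ones, with AML 1 the lowest of the 6, where it was the highest AML library for every other member. The AML libraries of Dusp6 spanned 1.16-fold, and 58.2% of the genes of at least 10 CPM spanned more, so their order rests on small differences. Its log2 fold change was -0.65 ± 0.13 (SE), or 0.638 times the healthy level, and -0.31 with Lyz2 as a covariate, a fit that rests mostly on healthy 1.

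Dusp10 (chromosome 1, 184034461 to 184075636, plus strand), a phosphatase of JNK and p38, resembled Dusp5. It measured 126, 64.4 and 53.2 CPM in AML 1 to 3, against 94.9, 115 and 104 CPM in healthy 1 to 3. AML 1 was the highest of all 6 libraries and AML 2 and AML 3 the lowest, so the groups overlapped. The log2 fold change was -0.36 ± 0.29 (SE) with all libraries, -0.83 without AML 1, -0.22 without AML 2 and -0.13 without AML 3. AML libraries spanned 2.37-fold, with a wider span for 1.17% of the genes of at least 10 CPM.

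Dusp16 (chromosome 6, 134715468 to 134792628, minus strand), which also acts on JNK and p38, showed no separation of the groups. It measured 7.63, 4.63 and 5.19 CPM in AML 1 to 3, against 6.75, 4.80 and 5.46 CPM in healthy 1 to 3. The library numbered 1 was the highest and that numbered 2 the lowest in both groups. The log2 fold change of 0.04 ± 0.27 (SE) turned negative in 5 alternatives, among them -0.21 without AML 1.

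**Figure D3:**
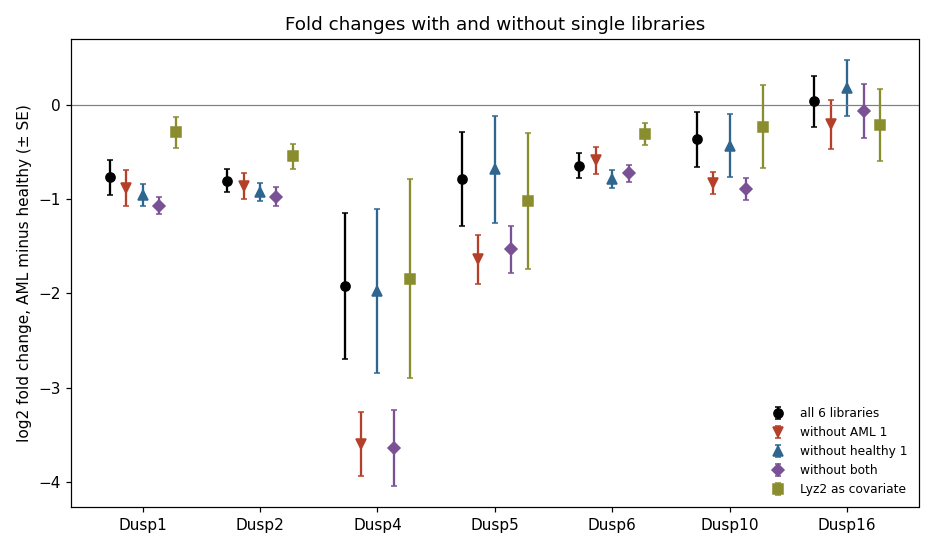
Log2 fold changes, AML minus healthy, with the SE of the fit for each member with all 6 libraries, without AML 1, without healthy 1, without both, and with Lyz2 as a covariate. The values of Dusp4, Dusp5 and Dusp10 move away from 0 without AML 1, to -3.60, -1.64 and -0.83, and stand at -3.64, -1.53 and -0.90 without both, and those of Dusp1 and Dusp6 move towards 0 with the covariate, to -0.29 and -0.31. The covariate fit sets the AML libraries mostly against healthy 1, the only healthy library with high Lyz2.

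How many members passed depended on the libraries and the tool. Without healthy 1 the quasi-likelihood test called Dusp1, Dusp2 and Dusp6 lower in AML, where 0.0705% of genes tested were called lower. Without AML 1 it called Dusp2, Dusp4, Dusp5 and Dusp10, against 0.964% of genes, and without both it called all but Dusp16, or 6 of the 7, against 1.74%. With all libraries DESeq2 and the likelihood ratio test of edgeR each called Dusp1, Dusp2 and Dusp6, against 0.313% and 0.192% of genes called lower, and limma-voom called 0 of the 7. Members whose AML libraries all lay below the healthy ones numbered 4 without healthy 1, where 11.9% of genes did so, and 6 without AML 1 or without both, where 17.6% and 23.2% did. The authors' deposited table, which holds 6 of the 7 members and 9769 genes, gives log2 fold changes of -0.80 for Dusp2, -0.64 for Dusp6 and -0.76 for Dusp1 with adjusted p below 0.05, while 0.276% of its genes were lower at that level. In the authors' deposited table Dusp4, Dusp5 and Dusp10 stand at -1.92, -0.78 and -0.36 and did not reach it.

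In the quasi-likelihood test with all libraries none of the rest of the phosphatase family passed, where 0% of all genes did, the members included. Dusp7, a cytoplasmic ERK phosphatase close to Dusp6 in kind, measured 131 ± 10.4 CPM in AML and 128 ± 12.3 CPM in healthy libraries (SD, n = 3 each), with a log2 fold change of 0.03 ± 0.10 (SE). Its libraries overlapped between the groups. Dusp8, a phosphatase of JNK and p38, stood at 0.921 ± 0.712 CPM in AML and 0.595 ± 0.367 CPM in healthy libraries, and Dusp9 averaged 0.168 CPM in AML and 0.178 CPM in healthy libraries. A list of 18 further phosphatases held atypical dual-specificity phosphatases, which lack the MAP kinase binding domain, and the slingshot phosphatases Ssh1, Ssh2 and Ssh3. Of these 18 genes 12 were tested, with 0 called and a median log2 fold change of 0.10. The most abundant of them, Dusp11, which acts on RNA, measured 160.3 ± 7.65 CPM in AML and 147 ± 4.96 CPM in healthy libraries. Dusp22, which had the smallest p of that list, had a log2 fold change of 0.42 ± 0.23, which did not pass (adjusted p = 0.606, edgeR). Of the phosphatase-dead relatives, Styx averaged 0.394 CPM in AML and 0.429 CPM in healthy libraries and Styxl1 0.0842 CPM in AML and 0.204 CPM in healthy libraries, with 0 of the 2 called and a median log2 fold change of -0.69. Dusp13, Dusp15, Dusp21 and Dusp26 had 0 reads in every library.

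Of 14 genes of MAP kinases, the enzymes these phosphatases act on, 8 were tested and 0 passed, with a median log2 fold change of -0.04. Mapk14, which encodes p38 alpha, had a log2 fold change of -0.10 ± 0.08 (SE). Mapk6, the atypical kinase ERK3, had the smallest p of the list and followed the pattern of Dusp10, with 90.3, 49.2 and 50.6 CPM in AML 1 to 3 and 84.2, 74.0 and 80.5 CPM in healthy 1 to 3.

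Upstream of the kinases 0 genes passed, where 0% of all genes did. The 7 MAP kinase kinase genes had a median log2 fold change of -0.12, and Map2k6, an activator of p38, had the smallest p, at 13.4 ± 0.973 CPM in AML and 19.1 ± 1.57 CPM in healthy libraries and an adjusted p of 0.404 in the edgeR test. Map2k2, an ERK activator and the most abundant of that list, had a log2 fold change of -0.12 ± 0.07. Of 21 MAP kinase kinase kinase genes 17 were tested, with a median of 0.11. Araf was the most abundant of them, at 202 ± 11.2 CPM in AML and 211 ± 4.07 CPM in healthy libraries, and Map3k4 and Map3k20 had the smallest p, with log2 fold changes of -0.16 ± 0.07 and 2.33 ± 1.06, the second at 0.753 CPM in AML and 0.148 CPM in healthy libraries on average. Of 15 Ras genes, exchange factors and adaptors 14 were tested, with a median of -0.05. Rras2 had a log2 fold change of -0.16 ± 0.09, and Rasgrp1, an exchange factor that activates Ras in lymphocytes, was the most abundant, at 275 ± 27.4 CPM in AML and 254 ± 12.6 CPM in healthy libraries.

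Other inhibitors of the pathway did not share one direction. Of 17 listed genes 13 were tested and 0 passed, with 7 positive and 6 negative fold changes and a median of 0.03. Ptpn7, a tyrosine phosphatase of lymphocytes that inactivates ERK and p38, measured 575, 564 and 598 CPM in AML 1 to 3, against 494, 485 and 451 CPM in healthy 1 to 3. All AML libraries lay above the highest healthy one, as for 8.20% of all genes, and the log2 fold change of 0.28 ± 0.07 (SE) did not pass, with 0.404 as its adjusted p in the edgeR test. Rasa2, which turns Ras off, had a log2 fold change of 0.20 ± 0.09. Spry2, a Sprouty protein that restrains Ras signalling and was chosen after its values were seen, measured 118, 59.9 and 56.8 CPM in AML 1 to 3, against 105, 126 and 106 CPM in healthy 1 to 3. As with Dusp5, AML 1 lay among the healthy libraries.

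Fold changes of genes transcribed after MAP kinase activation were more often negative than positive. Of 24 listed genes 21 were tested and 0 passed, with 16 negative and 5 positive fold changes and a median of -0.13. Over all genes tested 5986 fold changes were negative and 6483 positive. Junb, an AP-1 subunit and the most abundant, measured 7105 ± 923 CPM in AML and 9106 ± 484 CPM in healthy libraries, with an adjusted p of 0.404 in the edgeR test. Myc, a growth regulator, had the smallest p, at -0.67 ± 0.10 on the log2 scale with an adjusted p of 0.323. Of the 11 kinase genes that MAP kinases activate 10 were tested and 0 passed, with a median of -0.05. Rps6ka1, a kinase downstream of ERK, was the most abundant, at 742 ± 35.6 CPM in AML and 812 ± 22.9 CPM in healthy libraries, and Rps6ka4, which MAP kinases activate in the nucleus, had the smallest p, at an adjusted p of 0.570.

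Over all these lists 106 genes were tested and 0 passed, where 0% of all genes did, with a median log2 fold change of -0.057. At an unadjusted p below 0.05 there were 5 higher and 4 lower, against 8.84% of all genes in either direction. DESeq2 called 3 of them, Myc, Junb and Ptpn7, where it called 143 of all 12469 genes. The likelihood ratio test called 1 lower, Myc, against 0.192% of all genes called lower, and limma-voom called 0. Without healthy 1 the quasi-likelihood test called 1 of 109 lower, Myc, against 0.0705% of all genes. Without AML 1 it called 5 of 108 lower, Fosl2, Mapk6, Myc, Phlda1 and Spry2, against 0.964%. Without both AML 1 and healthy 1 it called 8 of 106 lower, adding Egr1, Fosb and Junb to them, against 1.74%. These genes are named because they passed, so their choice follows their values. Fosl2, an AP-1 subunit, had 89.8, 27.5 and 22.0 CPM in AML 1 to 3 and 69.0, 64.6 and 68.0 CPM in healthy 1 to 3. Without AML 1 its log2 fold change was -1.44 ± 0.12 (SE).

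**Figure D4:**
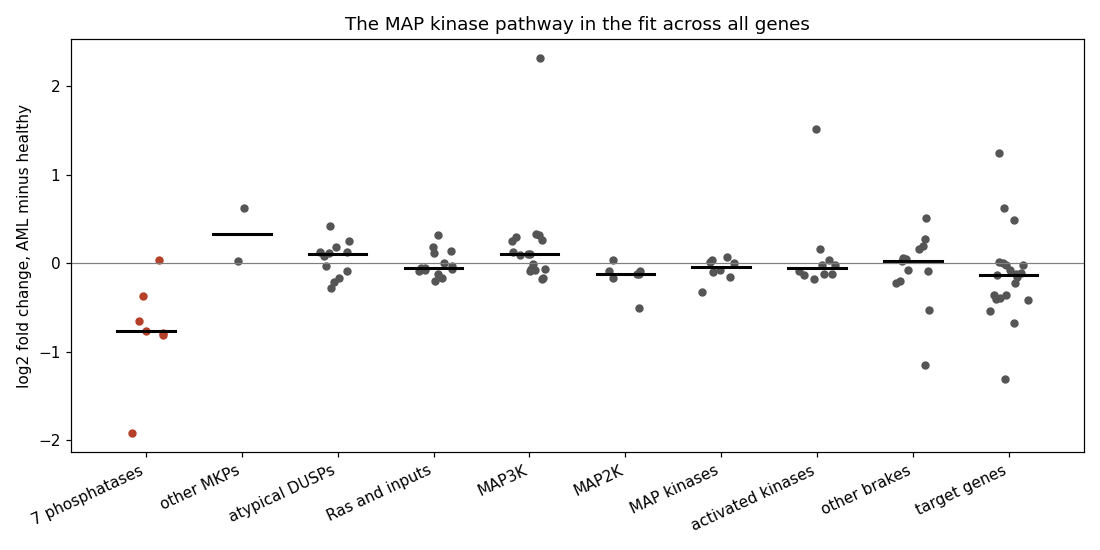
Log2 fold changes, AML minus healthy, of the tested genes of 10 lists, with a bar at the list median. The list marked as atypical also holds Ssh1, Ssh2 and Ssh3. The 7 phosphatases have a median of -0.77, and the medians of the other lists shown lie between -0.13 and 0.33, while the 2 scarce phosphatase-dead relatives, with a median of -0.69, are not drawn.

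The genes whose profile over the 6 libraries was most like that of the 2 most abundant members were sought among 8340 other genes, by the root mean square distance of centred and scaled log2 CPM. Nearest to Dusp1 were Ciart, a repressor of the circadian clock, at 0.109, then Ttc3 at 0.127 and Arl4d at 0.143. Ciart had 41.2, 33.5 and 32.4 CPM in AML 1 to 3 and 44.3, 77.4 and 67.8 CPM in healthy 1 to 3. Nearest to Dusp2 were Hist1h1c, a linker histone gene, at 0.0757, then Arhgap21 at 0.0926 and Fyttd1 at 0.125. Hist1h1c had 25.5, 24.5 and 21.0 CPM in AML 1 to 3 and 40.2, 71.5 and 59.9 CPM in healthy 1 to 3. In both, as in the phosphatases they follow, healthy 1 was the lowest healthy library and AML 3 the lowest of all. This shared order follows from the search, which picked them for likeness over these same libraries, so it only describes them. Scaling also removes the size of a change. Ttc3 ran from 65.3 CPM in AML 3 to 77.4 CPM in healthy 2, and Dusp1 from 1853 to 4269 CPM in the same libraries.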

How the data were processed

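Messenger RNA was measured in 6 libraries, 3 AML and 3 healthy. Per the labels' protocols, 2 ng of total RNA was amplified with a SMART-Seq kit, and single reads of 51 cycles carry no strand information. All tests used the raw read count of each gene in the authors' table, which also gives gene positions and lengths. Tools named in the submitters' processing notes are STAR 2.6.0, HTSeq 0.6.0, bcl2fastq 2.18.0.12 and edgeR 3.28.1, with the builds hg19 and mm10. Their options are not given in these sources, and positions are taken as mm10, since most match GRCm38.p6. A second deposited table holds the authors' own log2 fold change, log2 CPM, a likelihood ratio score, p-value and adjusted p-value. Its values per library, which are not whole numbers, were treated as the authors' RPKM and used in no test.

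AML was compared with healthy by edgeR 4.0.16 (R 4.3.3), using its quasi-likelihood test with TMM factors, filterByExpr at its minimum count of 10 and the group as the sole term, two-sided, with Benjamini-Hochberg adjustment over 12469 genes at 0.05. CPM and RPKM use TMM-scaled totals. The test was tested on simulated data first. For 1 gene, the smallest p that exact permutation of 3 against 3 libraries allows is 0.1. Alternatives used DESeq2 1.42.0, limma 3.58.1, other factors and filters, a replicate block, Lyz2 as a covariate, GENCODE gene lengths for the RPKM of the members alone and left-out libraries. The members, lists and tests were chosen with earlier results of these data known. Named from each pathway list were genes past the threshold or, where none passed, the most abundant and those with the smallest p, except for some genes that are not reported here. The floor of 3 counts covers counting error alone, as no molecular identifiers mark separate molecules.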

Additional observations from a re-analysis of the deposited data

How the results depend on the processing

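Over all genes 0 were called with all libraries in the edgeR quasi-likelihood test, against 1102 at an unadjusted p below 0.05. DESeq2 called 143, the likelihood ratio test 100, upper-quartile factors 1, library totals only 2, no filter 2 and the stricter filter, 5 CPM in 3 libraries, 1. Limma-voom, DESeq2 size factors, Lyz2 as a covariate and the replicate block called 0. Leaving out single libraries gave 0 to 147 calls, with 147 without AML 1 and 89 without healthy 1, and leaving out AML 1 and healthy 1 gave 444. Pathway genes called numbered 0 with all libraries, 3 by DESeq2, 1 by the likelihood ratio test, 0 to 5 without single libraries and 8 without AML 1 and healthy 1.

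Of the members, 6 kept a negative fold change under all 17 alternatives. That of Dusp1 ran from -1.07 to -0.29, of Dusp2 from -0.97 to -0.55, of Dusp4 from -3.64 to -1.47, of Dusp5 from -1.64 to -0.41, of Dusp6 from -0.79 to -0.31 and of Dusp10 from -0.90 to -0.13. Dusp16, at 0.04, turned to -0.079 without healthy 2, to -7.92e-05 without healthy 3, to -0.21 without AML 1, to -0.064 without AML 1 and healthy 1 and to -0.22 with Lyz2 as a covariate, while single left-out libraries took it from -0.21 to 0.18. Whether equal replicate numbers pair the libraries could not be decided from 3 libraries per group. Deviations of libraries with equal numbers correlated at 0.146, -0.110 and 0.296, and those with unequal numbers at -0.332 to 0.17. The replicate block left 0 members called. Counts over libraries without AML 1 or healthy 1 for non-overlap were chosen after the data were seen. With GENCODE gene lengths, an alternative chosen after the data were seen, mean RPKM of Dusp5 was 218 in AML and 376 in healthy libraries, and that of Dusp16 1.14 in AML and 1.11 in healthy libraries. The low counts of Dusp4 in AML 2 and AML 3, 32 and 22 reads, limit its precision.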
